A study of Mus musculus with 31 samples.

Results

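The 10 genes Hk1, Hk2, Pfkp, Pfkl, Aldoa, Tpi1, Pgk1, Pgam1, Eno1 and Ldha encode enzymes that carry glucose to lactate. Their transcripts were followed in D10.G4.1 cells, a mouse T helper type 2 (Th2) line that is a single clone, after exposure to the peptide neuromedin U (NmU) or to phosphate-buffered saline (PBS) as vehicle. All probe sets that the platform's probe annotation pairs with 1 of these symbols and no other were taken. This gave 12 probe sets for 9 genes, out of 12488 probe sets on the array, and 0 probe sets were paired with Eno1 alone. Cells were sampled at 0.8, 3, 6 and 12 h, and 31 arrays were run, 4 for each treatment and time except NmU at 3 h, which had 3. All groups were the same clone in culture with no other agent named in the labels. The labels do not say whether replicates were separate cultures, so p-values reflect only how far these samples spread, and that spread may be technical.

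Glycolysis splits a molecule of glucose into a pair of pyruvate molecules in the cytosol and yields ATP without oxygen. Hexokinase (Hk1, Hk2) phosphorylates glucose and so traps it in the cell, phosphofructokinase (Pfkp, Pfkl) makes the committed step, and aldolase (Aldoa) and triose phosphate isomerase (Tpi1) give triose phosphates. Phosphoglycerate kinase (Pgk1) makes ATP, phosphoglycerate mutase (Pgam1) and enolase (Eno1) lead on towards pyruvate, and lactate dehydrogenase (Ldha) turns pyruvate into lactate while regenerating NAD+. T cells that are activated through their antigen receptor are known to raise glucose uptake and to direct much of it to lactate, and the factors Myc and Hif1a are known regulators of many genes of the pathway.

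The transcripts of 9 enzymes were detected in every group, and 0 of 11 probe sets were called between NmU and PBS at any time. Of all those tested, 0.845%, 10.2%, 4.88% and 1.26% were called at 0.8, 3, 6 and 12 h. With so few members, a count of 0 lies close to these shares. Each value is the intensity of a probe set as deposited, on a linear scale that the authors had already brought to a common mean per array. An intensity under 5.8, the 20th percentile of all values, was raised to that floor before log2 was taken, and 7930 probe sets that exceeded a signal of 20.2 on average in at least 1 group were tested with limma, a linear model with moderated errors. Calls were made at an adjusted p under 0.05 over these 7930. Of the 12 probe sets 11 passed this filter. The other, 161313_at for Hk2, read 0.6 to 11.4 and lay at or under the floor on 26 of 31 arrays, so the Hk2 values below come from 94375_at.

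The arrays were alike in median signal and in correlation, but less so at the top of the scale. Their median signals lay between 34.4 and 43.3. Their mean correlations with the other arrays of their group lay between 0.956 (PBS 3 h replicate 4) and 0.977 (across probe sets, not over independent samples). The highest signal of an array ran from 7231.3 to 11858.8, and its part in the levels of bright probe sets was not tested. The log2 ratio of 3′ to 5′ control probe sets, a measure of RNA integrity, ranged from -0.47 to -0.08 for Gapdh and from -0.12 to 0.26 for Actb. Of 9 T cell markers 8 had a probe set and 6 of these passed the filter (Thy1 and Cd5 did not), as did all 6 measured Th2 markers. Cd8a and Cd8b1 of cytotoxic T cells and Lyz2, Adgre1 and Itgam of macrophages did not pass it. Mpeg1 of macrophages did, at 70 to 337, where Cd4 of the T cell list read 230.4 to 334.2. Of the macrophage list 4 of 7 probe sets passed, and its summed signal ran from 204.4 to 490.4 in PBS at 3 h, from 311.4 to 441.8 in NmU at 3 h, from 332.1 to 425.4 and 389.1 to 488.8 at 6 h, and from 349.3 to 492.6 and 404.0 to 480.8 at 12 h. Cd68 of that list, a lysosomal protein, was called higher with NmU at 6 h (log2 difference 0.54, limma adjusted p = 0.037) and at 12 h (0.61, limma adjusted p = 0.0457). Leaving out 1 array lost these calls in 6 and 23 of 31 fits, with 0.49 to 0.58 and 0.47 to 0.65 in those fits. Of the B cell list 4 of 5 probe sets passed the filter and of the dendritic cell list 3 of 4, and none of these 7 was called between NmU and PBS at any of the 4 times. Of the fibroblast list 2 of 4 passed, with Col1a2 at 251.5 to 508.7. For NK, mast and erythroid cells 1 of 2, 1 of 3 and 1 of 2 passed. None of these was called between NmU and PBS either. Of the 6 Th2 markers 4, 6, 4 and 4 were called higher with NmU at 0.8, 3, 6 and 12 h. Over all probe sets 0.782%, 4.44%, 2.85% and 0.858% were called higher. Of the 6 tested T cell markers 1 was called higher at 3 h and 1 at 6 h. The part of the macrophage markers in the results at 6 and 12 h was not tested. In bulk RNA of this kind, fewer cells of a type and less RNA per cell cannot be told apart.

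At 0.8 h, 0 of 11 probe sets were called in limma, against 0.845% of all those tested, and 2 of 11 had an unadjusted p under 0.05, against 6.80%. At 3 h the count was again 0 of 11, against 10.2% of all, with 2 of 11 at an unadjusted p under 0.05, against 24.1%. At 6 h it was 0 of 11 against 4.88% (unadjusted 0 of 11 against 17.4%), and at 12 h 0 of 11 against 1.26% (unadjusted 3 of 11 against 11.1%). The median log2 difference of the 11 probe sets, NmU minus PBS, was 0.06 at 0.8 h, -0.14 at 3 h, 0.02 at 6 h and 0.08 at 12 h. Over all tested probe sets it was -0.04, -0.03, 0.02 and -0.02. The sign of the members' median at 6 h depended on the scaling: it was -0.07 with arrays scaled to a common median (3 of 11 above 0) and 0.09 after quantile normalisation (9 of 11), against 7 of 11 as deposited. With 1 array left out the median reached -0.0038 at 0.8 h (without PBS 0.8 h replicate 1), -0.05 at 3 h (without NmU 3 h replicate 2), -0.0072 at 6 h (without NmU 6 h replicate 3) and 0.0059 at 12 h (without PBS 12 h replicate 1).

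The intervals show how precisely the differences were measured on these arrays. They are not adjusted for the number of differences. They rest on a spread that may be technical, so they may not bound the effect of NmU across cultures. Of the 44 differences, 11 probe sets at 4 times, the 95% interval of 43 lay within 2-fold either way and that of 37 within 1.5-fold. At 3 h, 11 of 11 intervals lay within 2-fold, as did 79.8% of all intervals, and 9 of 11 within 1.5-fold, as did 46.0% of all. At 6 h, 11 of 11 lay within 2-fold, against 85.3% of all, and 11 of 11 within 1.5-fold, against 55.9%. At 0.8 h it was 11 of 11 against 86.8% and 9 of 11 against 63.3%, and at 12 h 10 of 11 against 86.7% and 8 of 11 against 60.5%. The spread between replicates was small for these bright probe sets: the residual SD had a median of 0.16 on the log2 scale over the 11, against 0.24 over all tested. It was smallest for Tpi1, at 0.08, below which lay 0.631% of all probe sets, and largest for Hk1, at 0.36.

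**Figure D1:**
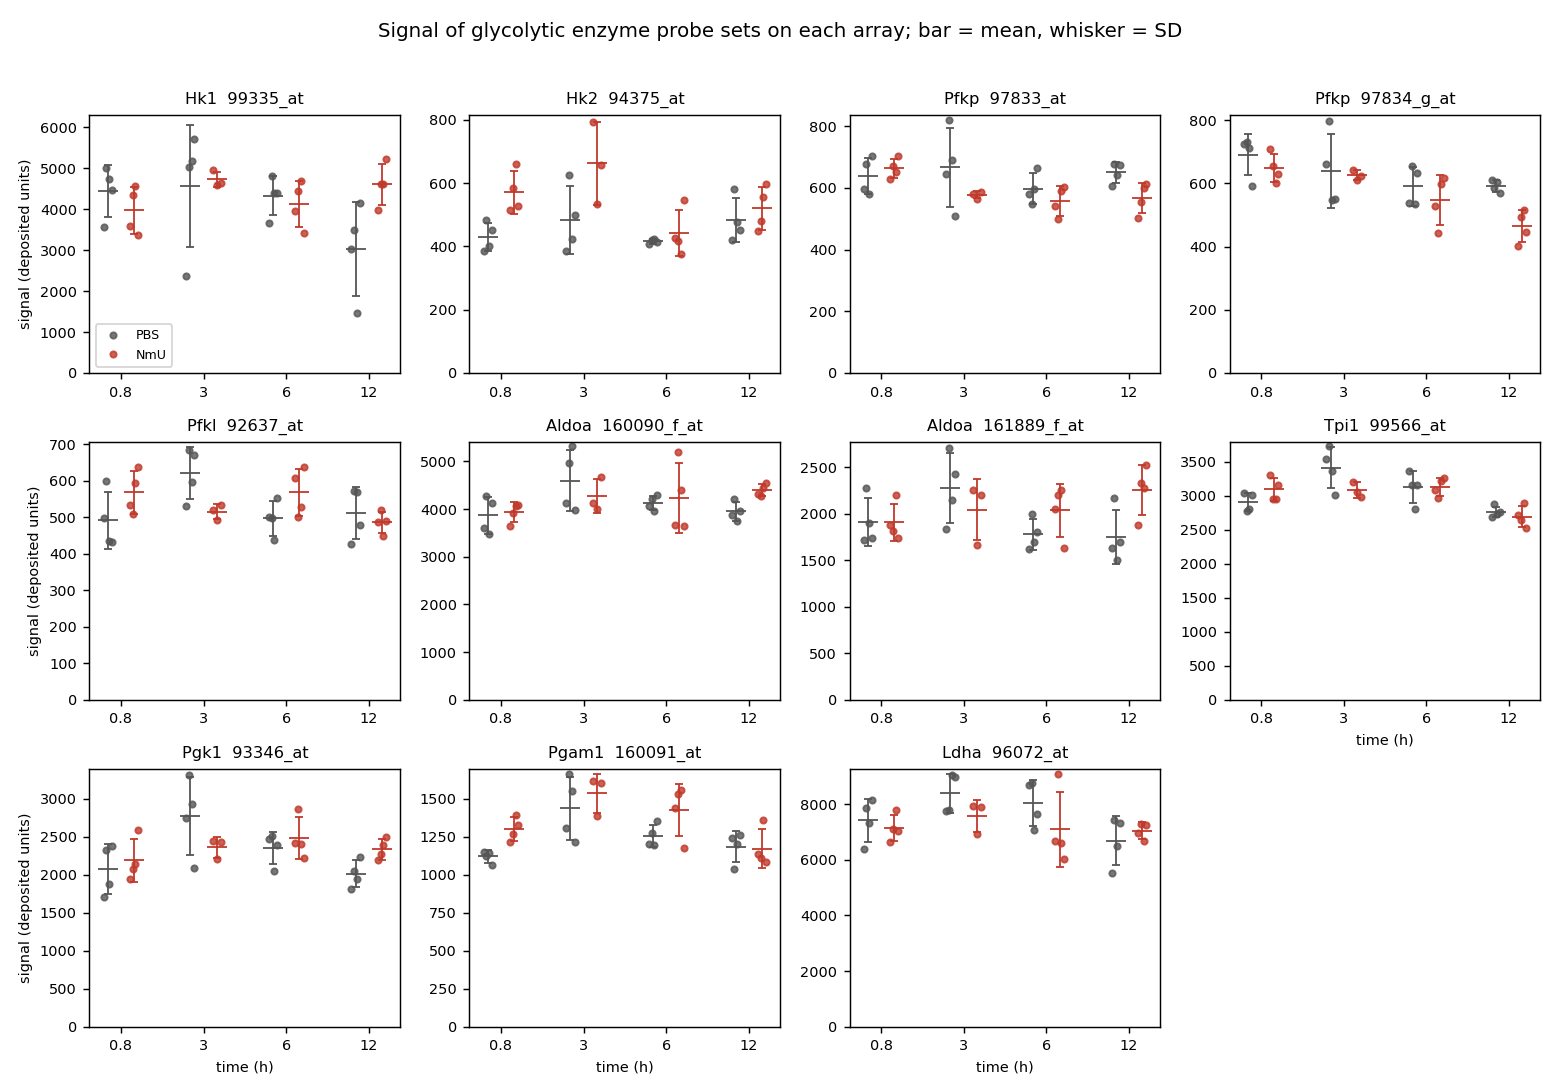
Deposited signal (y axis, linear, from 0) of the 11 tested probe sets on each of the 31 arrays against time in hours, PBS in grey and NmU in red, with the mean as a bar and the SD as a whisker. The 2 treatments overlap in most panels, with Hk2 and Pgam1 at 0.8 h and Pfkp 97834_g_at and Aldoa 160090_f_at at 12 h as the exceptions.

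Hexokinase is the entry point of the pathway. For Hk2, the inducible isoform, the 4 PBS arrays at 0.8 h read 384.3, 481.9, 401.6 and 451.9 and the 4 NmU arrays 513.5, 583.2, 661.6 and 526.0. At 3 h the PBS arrays read 384.4, 626.7, 422.9 and 499.0 and the 3 NmU arrays 793.5, 534.0 and 658.4. At 0.8 h every NmU array was above every PBS array, and at 3 h the groups overlapped through PBS replicate 2. Among the 11 probe sets, 2 had groups that did not overlap at 0.8 h, against 5.02% of all those tested.

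The log2 difference of Hk2 at 0.8 h was 0.41 (SE 0.147, 95% interval 0.11 to 0.71, limma adjusted p = 0.368). At 3 h it was 0.46 (SE 0.158, interval 0.13 to 0.79, limma adjusted p = 0.063). Neither passed the threshold. The difference at 3 h passed it when arrays were scaled to a common median (0.49, limma adjusted p = 0.0456), without PBS 3 h replicate 2 (0.59, limma adjusted p = 0.0143) and without NmU 3 h replicate 2 (0.61, limma adjusted p = 0.0291). Without NmU 3 h replicate 1 it was 0.32. Averaging both Hk2 probe sets, of which the second is at background, gave 0.20 at 0.8 h and 0.13 at 3 h.

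In NmU-treated cells Hk2 was called lower at 6 h than at 3 h, though several alternatives lost that call. The 4 NmU arrays at 6 h read 427.7, 418.2, 375.7 and 546.4, a mean of 442 ± 73.2 (SD, n = 4), after 662 ± 130 (SD, n = 3) at 3 h. The groups overlapped, since replicate 4 at 6 h lay above replicate 2 at 3 h. The log2 level of Hk2 fell by 0.58 (SE 0.158, limma adjusted p = 0.0372), and it was the 1 of 11 probe sets called between these times, against 3.72% of all probe sets in either direction and 1.11% lower. The call was lost without NmU 3 h replicate 1 (-0.44, limma adjusted p = 0.261) or 3 (-0.57, limma adjusted p = 0.116), and without NmU 6 h replicate 1 (-0.57), 2 (-0.56) or 3 (-0.50). It was also lost after quantile normalisation (-0.57, limma adjusted p = 0.0572) and with only the NmU groups in the fit (-0.58, limma adjusted p = 0.0747), where the difference itself stayed about as large. In NmU-treated cells 0 of 11 were called from 0.8 to 3 h and from 6 to 12 h, against 8.51% and 0.706%.

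The PBS arrays at 6 h read 406.1, 421.1, 422.9 and 414.9 for Hk2, and those at 12 h 419.5, 580.0, 477.9 and 451.9. At 12 h the NmU arrays read 447.4, 481.6, 554.8 and 597.4. The treatments overlapped at both times, with log2 differences of 0.07 and 0.11. Whether the effect of NmU on Hk2 differed between times was tested on its own, and the moderated F test gave an adjusted p of 0.521 in limma. The fall from 3 to 6 h within NmU is thus not shown to differ from that in PBS, whose means at 3 and 6 h were 483 ± 107 and 416 ± 7.58 (SD, n = 4 each).

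Hk1, the isoform found in most tissues, had the widest scatter of the 11 probe sets. Its PBS arrays at 12 h read 3036.3, 3501.6, 1454.4 and 4145.6, and the NmU arrays 3990.0, 4620.6, 4617.0 and 5219.6. PBS replicate 3 lay far below the others, and PBS replicate 4 lay inside the NmU range. The log2 difference was 0.70 (SE 0.243, interval 0.20 to 1.20, limma adjusted p = 0.214), the 1 of the 44 differences that reached 1.5-fold. Without PBS 12 h replicate 3 it was 0.38 (limma adjusted p = 0.604).

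At the earlier times the log2 differences of Hk1 were -0.16, 0.12 and -0.07. A low array occurred at 3 h too, where the PBS arrays read 2371.4, 5024.1, 5176.7 and 5714.1 and the NmU arrays 4945.5, 4591.5 and 4642.6. Without PBS 3 h replicate 1 the 3 h difference was -0.17. The group means of Hk1 ran from 3034 ± 1147 in PBS at 12 h to 4727 ± 191 in NmU at 3 h (SD), and no neighbours in that order were free of overlap.

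Phosphofructokinase catalyses the committed step and was measured by 3 probe sets. For Pfkp, the platelet-type subunit, 97834_g_at read 609.9, 586.6, 603.4 and 568.2 in PBS at 12 h and 402.5, 493.1, 515.3 and 444.9 in NmU. Every NmU array lay below every PBS array. The log2 difference was -0.36 (SE 0.117, limma adjusted p = 0.173), which did not pass. The second Pfkp probe set, 97833_at, read 605.1, 678.6, 643.1 and 672.8 in PBS and 503.2, 555.5, 601.1 and 611.0 in NmU at 12 h. Its difference was -0.20 (limma adjusted p = 0.509), and its groups overlapped through 1 NmU array.

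Pfkp 97834_g_at passed the test of change with time in NmU-treated cells. Its NmU means were 648 ± 45.5 at 0.8 h, 626 ± 16.1 at 3 h (n = 3), 546 ± 79.2 at 6 h and 464 ± 50.4 at 12 h (SD, n = 4 otherwise), and the moderated F test over the 4 NmU groups gave an adjusted p of 0.0184 in limma. It was the 1 of 11 probe sets called in that test, against 11.4% of all, and 4 of 11 had an unadjusted p under 0.05, against 24.4%. The call was lost without NmU 12 h replicate 1 or 4, which left 0 of 11, and without NmU 6 h replicate 4 the count was 3 of 11. In PBS the means of 97834_g_at were 690 ± 65.3, 638 ± 117, 591 ± 62.6 and 592 ± 18.7 (SD, n = 4), with an adjusted p of 0.712 in the same test over the PBS groups. The F test of an NmU effect differing between times gave 97834_g_at an adjusted p of 0.566 in limma. A change over time unlike that in PBS is thus not shown. For 97833_at the F test over the NmU groups gave an adjusted p of 0.304 in limma. Over the 31 arrays the Pfkp probe sets correlated at r = 0.56, and their 4 differences had the same sign at 3 of 4 times.

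Pfkl, the liver-type subunit, read 530.8, 685.4, 597.3 and 671.0 in PBS at 3 h and 520.7, 492.2 and 533.0 in NmU. PBS replicate 1 lay inside the NmU range and the other PBS arrays above it. The log2 difference was -0.26 (SE 0.127, limma adjusted p = 0.205). At 0.8, 6 and 12 h the differences of Pfkl were 0.22, 0.19 and -0.06. The change of effect between 0.8 and 3 h was -0.48 (limma adjusted p = 0.146) and that between 3 and 6 h was 0.46 (limma adjusted p = 0.306). In these tests of a change of effect 0 of 11 probe sets were called at either step, against 3.29% and 0.719% of all, with 2 and 1 of 11 at an unadjusted p under 0.05, as had 1265 and 850 of the 7930 tested.

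**Figure D2:**
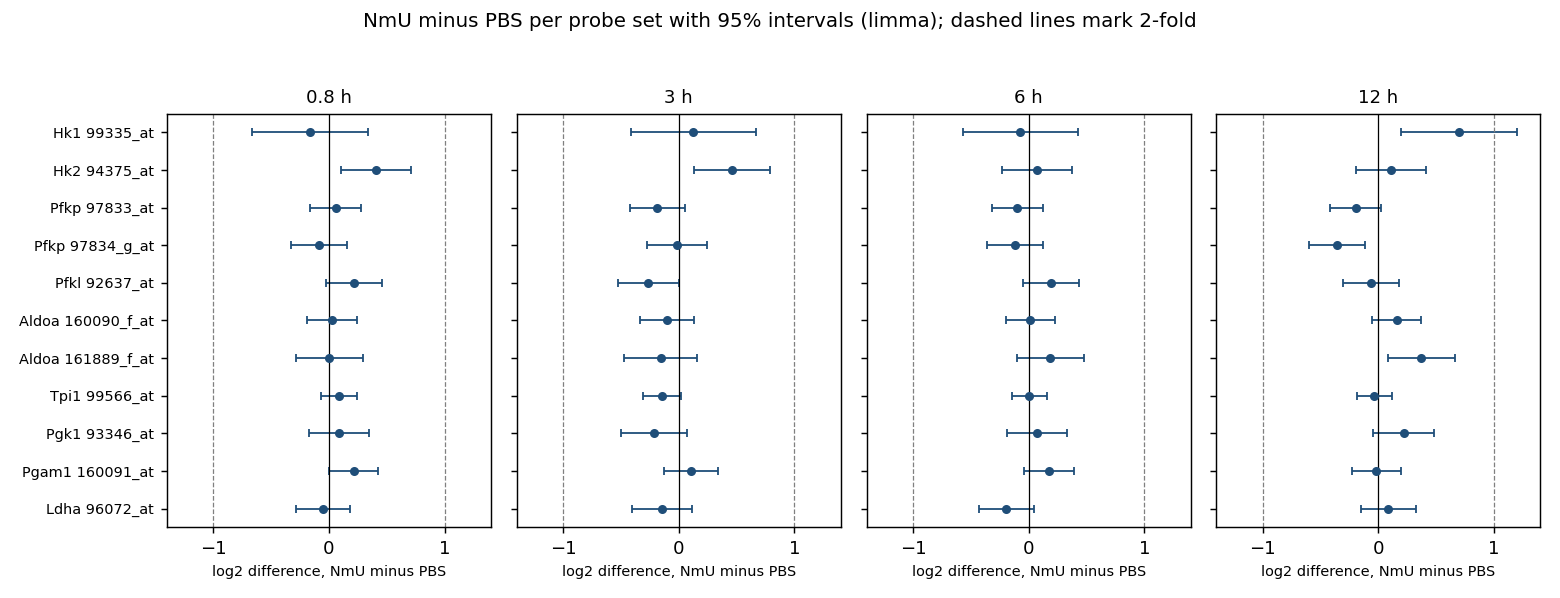
Difference between NmU and PBS on the log2 scale (x axis) for each of the 11 probe sets at 0.8, 3, 6 and 12 h, with the 95% interval from limma; dashed lines mark 2-fold. The interval of Hk1 at 12 h, from 0.20 to 1.20, is the 1 of 44 that crosses a dashed line.

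Tpi1, which interconverts the triose phosphates, read 3534.7, 3731.7, 3364.1 and 3016.5 in PBS at 3 h and 3209.1, 3054.6 and 2988.6 in NmU. PBS replicate 4 lay inside the NmU range, and the log2 difference was -0.14 (SE 0.0798, limma adjusted p = 0.293). The differences at 0.8, 6 and 12 h were 0.09, 0.00 and -0.04, and at all 4 times the 95% interval of Tpi1 lay within 1.5-fold.

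Aldoa, the aldolase of muscle and of many proliferating cells, had 2 probe sets, and both were higher on average with NmU at 12 h. For 160090_f_at the PBS arrays read 3875.0, 4214.7, 3745.4 and 3962.0 and the NmU arrays 4326.1, 4283.4, 4441.4 and 4553.0, with no overlap. Its log2 difference was 0.16 (SE 0.104, limma adjusted p = 0.607). For 161889_f_at the PBS arrays read 1638.3, 2168.1, 1499.6 and 1696.2 and the NmU arrays 1879.1, 2332.8, 2283.4 and 2527.4. PBS replicate 2 lay inside the NmU range there, and the difference was 0.37 (SE 0.141, limma adjusted p = 0.276). At 12 h 2 of 11 probe sets, Pfkp 97834_g_at and Aldoa 160090_f_at, had groups without overlap, against 7.49% of all, while at 3 h and 6 h 0 of 11 did, against 18.7% and 12.0%. By the array maker's naming, the letter f marks probe sets whose probes can bind several similar transcripts, so Aldoa values may hold signal of related sequences.

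Pgk1, the first enzyme of the pathway to make ATP, read 2745.0, 3311.5, 2933.2 and 2083.1 in PBS at 3 h and 2438.4, 2203.7 and 2426.7 in NmU. PBS replicate 4 lay below all NmU arrays and the other PBS arrays above them, and the log2 difference was -0.21 (SE 0.137, limma adjusted p = 0.365). Without PBS 3 h replicate 4 it was -0.34 (limma adjusted p = 0.0845). At 12 h the difference of Pgk1 was 0.22 (limma adjusted p = 0.558).

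Pgam1, which moves the phosphate within phosphoglycerate, was the second probe set without overlap at 0.8 h. Its PBS arrays read 1151.2, 1127.1, 1146.6 and 1062.4 and its NmU arrays 1214.1, 1270.6, 1395.2 and 1329.2. All NmU arrays were above all PBS arrays, by a log2 difference of 0.21 (SE 0.104, limma adjusted p = 0.734). At 3, 6 and 12 h the differences were 0.10, 0.18 and -0.02.

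Ldha, which closes the route to lactate, read 7763.7, 7803.4, 9038.6 and 8970.8 in PBS at 3 h and 7934.6, 6918.8 and 7914.4 in NmU. The groups overlapped, and the log2 difference was -0.14 (SE 0.124, limma adjusted p = 0.528). At 6 h the PBS arrays read 8683.7, 8763.4, 7076.3 and 7666.4 and the NmU arrays 6693.1, 9080.3, 6602.6 and 6021.7, where NmU replicate 2 was the highest of all 8. The difference was -0.19 (limma adjusted p = 0.405). Without NmU 6 h replicate 2 it was -0.32 (limma adjusted p = 0.094), without NmU 6 h replicate 4 -0.12, and after quantile normalisation 3.4e-05. At 0.8 and 12 h it was -0.05 and 0.08. The F test over all 4 times gave Ldha an adjusted p of 0.570 in limma. At 6 h the highest signal of an array was 8440 to 11858.8 in PBS. In NmU it was 11851.3 on replicate 2 and 7231.3 to 8314.9 on the others. The part of this in the Ldha values was not tested.

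Taken over all 4 times, 0 of 11 probe sets were called in the F test of any difference between NmU and PBS, against 11.6% of all (unadjusted 1 of 11 against 24.2%). In the F test of an effect differing between times it was 0 of 11 against 4.04% (unadjusted 1 of 11 against 16.3%). The lowest adjusted p in the first test was that of Hk2, at 0.0665.

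Time in culture was tested in the PBS groups alone. In PBS, 0 of 11 probe sets were called in the F test over time, against 0.0126% of all, 1 probe set of 7930. At an unadjusted p under 0.05 it was 6 of 11 (Hk1, Pfkl, Tpi1, Pgk1, Pgam1 and Ldha), against 8.74%. The mean of 7 of 11 probe sets was highest in PBS at 3 h and that of 3 in NmU at 3 h. From 0.8 to 3 h in PBS the differences of 9 of 11 were above 0, with a median of 0.23 against -0.03 over all tested. From 3 to 6 h 11 of 11 were below 0, with a median of -0.14 against -0.0037.

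Both steps use the same PBS arrays at 3 h, so the second is no independent sign of the first. In each step 0 of 11 were called, against 0.00% of all, with 5 and 2 of 11 at an unadjusted p under 0.05, against 8.27% and 6.08%. From 6 to 12 h in PBS it was 0 of 11 against 0.00%, with 3 of 11 unadjusted against 6.12%. Pgk1 had the largest difference from 0.8 to 3 h in PBS, at 0.41 (SE 0.127, limma adjusted p = 0.364), between means of 2072 ± 331 and 2768 ± 514 (SD, n = 4 each). Pgam1 gave 0.35 (limma adjusted p = 0.336), between 1122 ± 41.0 and 1437 ± 210. The PBS arrays at 3 h were also the least alike of any group over all probe sets, with mean correlations to their own group of 0.956 to 0.967, and their Gapdh 3′ to 5′ log2 ratios ran from -0.44 to -0.13. The part of these in the levels at 3 h was not tested.

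Replicates of a group varied together for some of the enzymes. Each array's deviation from its group mean was taken on the log2 scale for 1 probe set per gene, the brightest, and 36 pairs of genes were compared over 31 arrays. The Pearson r had a median of 0.20, ran from -0.29 (Hk1 with Tpi1) to 0.73 (Aldoa with Pgk1), and was above 0 for 30 of 36 pairs. Pfkp with Pgk1 gave 0.62, Aldoa with Ldha 0.59, Aldoa with Pgam1 0.51 and Pgk1 with Ldha 0.50. Without PBS 3 h replicate 4 the median was 0.23. These are descriptions over points that share array, scaling and RNA sample.

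**Figure D3:**
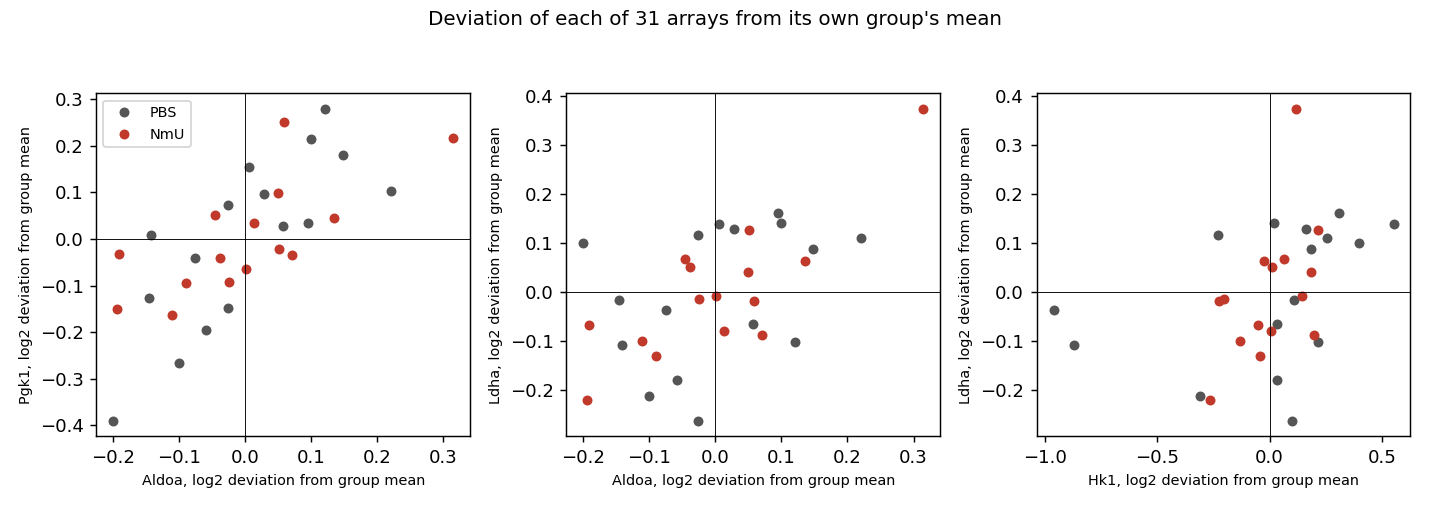
Deviation of each of the 31 arrays from its group mean, log2 scale on both axes, for Aldoa and Pgk1 (r = 0.73), Aldoa and Ldha (r = 0.59) and Hk1 and Ldha (r = 0.39); PBS in grey, NmU in red. The pair of arrays at the far left of the third panel are the low PBS arrays of Hk1 at 3 and 12 h.

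Among 5896 other genes, those whose 8 group means on the log2 scale followed the mean standardised profile of the enzymes most closely were Gbe1 (r = 0.94), Mt1 (0.92), Th (0.91), Serpina3n (0.91) and A430005L14Rik (0.88). Gbe1 encodes the branching enzyme of glycogen synthesis and Mt1 a metallothionein. Gbe1 was dim, with group means between 9.96 and 25.8, and exceeded the filter only in PBS at 3 h, where most of the enzymes were also highest, so that its place is in part set by the filter, while Mt1 ran from 1407 in PBS at 0.8 h to 1862 in PBS at 3 h. For Ldha alone the closest were Dtymk (0.99), Rhox5, Rpl6, Pttg1 and Rps7, of which Rpl6 and Rps7 encode ribosomal proteins. With 8 points and this many genes compared, high values of r arise easily, and they are given as a description.

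Promoters of the enzymes were searched because glycolytic genes are known targets of the hypoxia-inducible factors, which bind a short core. The windows, of 1 fixed length around annotated starts, came from RefSeq, build GRCm38.p6, and 13 of 32851 belonged to the 9 genes. On both strands, ACGTG stood in 7 of 13 windows (6 of 9 genes), against 19.6% of all windows, and GCGTG in 6 of 13 (5 genes), against 32.4%. CACGTG, the E-box bound by Myc and its partners, which contains ACGTG, was in 1 of 13, that of Ldha, against 7.15%. The GC box GGGCGG was in 9 of 13 windows (8 genes), against 35.7%. A pair of Aldoa windows overlaps, so the same ACGTG and GC boxes were counted in both. The shares over all windows were not matched for base composition, whose part in these counts was not tested. A match is a description of these letters and not a bound site. Shown are the 150 bases before the annotated start of Hk2 (chr6:82774455-82774604, minus strand), the gene with the lowest p at 3 h, and of Pgk1 (chrX:106186950-106187099, plus strand) and Pgam1 (chr19:41911721-41911870, plus strand), each written 5′ to 3′ on the strand of the gene, with ACGTG or GCGTG on either strand in capitals.
Hk2: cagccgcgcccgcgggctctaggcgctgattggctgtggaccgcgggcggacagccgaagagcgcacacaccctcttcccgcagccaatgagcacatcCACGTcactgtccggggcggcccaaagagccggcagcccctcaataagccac
Pgk1: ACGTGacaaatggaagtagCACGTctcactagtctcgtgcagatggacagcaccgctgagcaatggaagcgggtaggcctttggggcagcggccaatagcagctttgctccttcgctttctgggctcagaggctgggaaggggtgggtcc
Pgam1: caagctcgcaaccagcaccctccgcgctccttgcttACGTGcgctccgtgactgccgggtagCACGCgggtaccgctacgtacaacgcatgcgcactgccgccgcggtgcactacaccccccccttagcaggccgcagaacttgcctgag
The printed stretch of Hk2 holds 1 such core and those of Pgk1 and Pgam1 hold 2 each, on opposite strands.

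The genes around the pathway were taken as 5 lists. Of 16 other glycolytic genes 11 had a probe set and 8 were tested. At 3 h 0 of 8 were called higher, against 4.44% of all, and 1 lower, against 5.73%, and the median difference of the 8 was -0.21, against -0.03 over all tested probe sets. Pfkm, the muscle-type phosphofructokinase subunit, fell at 3 h from 101 ± 21.1 in PBS to 62.0 ± 10.1 in NmU (log2 difference -0.69, limma adjusted p = 0.0383). Its call was lost without replicates 2 (-0.58), 3 (-0.67) or 4 (-0.68) of PBS at 3 h, without 1 (-0.57) or 2 (-0.70) of NmU at 3 h, under both other scalings (-0.66 and -0.64) and with no filter on dim probe sets (-0.69). Eno3, a muscle enolase, fell at 6 h from 410 ± 8.46 to 346 ± 27.3 (-0.25, limma adjusted p = 0.0273), and that call was lost when replicate 1 (-0.25), 3 (-0.24) or 4 (-0.24) of PBS at 6 h, or 1 (-0.25) or 3 (-0.19) of NmU at 6 h, was left out. Pkm, the pyruvate kinase of T cells, gave -0.22 at 3 h (limma adjusted p = 0.313). At 6 h Eno3 was the 1 of 8 called, against 4.88% of all, and at 0.8 and 12 h 0 of 8 were, against 0.845% and 1.26%. Bpgm, the bisphosphoglycerate mutase, passed the F test over all times (limma adjusted p = 0.0411), with differences of -0.45, -0.33, 0.33 and 0.24 at 0.8, 3, 6 and 12 h, none of which was called alone. Eno2, the neuronal enolase, did not pass it (limma adjusted p = 0.156).

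Of 18 genes of glucose and lactate transport and of the control of glycolysis, 13 had a probe set and 9 were tested. Slc2a3, a glucose transporter, rose at 3 h from 108 ± 19.98 to 161 ± 4.80 (log2 difference 0.60, limma adjusted p = 0.0199) and at 6 h from 96.98 ± 11.3 to 140 ± 17.3 (0.53, limma adjusted p = 0.0483). It was the 1 of 9 called at each of these times, against 10.2% and 4.88% of all, and at 0.8 and 12 h 0 of 9 were, against 0.845% and 1.26%. Its 3 h call was lost when replicate 1 (0.53) or 2 (0.53) of PBS at 3 h, or 1 (0.59) or 3 (0.59) of NmU at 3 h, was left out. The 6 h call lay at the threshold and was lost in 21 of the 31 fits that left out 1 array (values from 0.44 to 0.58) and under both other scalings (0.44 and 0.47). Slc2a1, the transporter of most T cells, read 122 ± 20.3 in PBS and 209 ± 24.6 in NmU at 0.8 h, a difference of 0.78 that did not pass (limma adjusted p = 0.148). Pdk1, a kinase that inhibits pyruvate dehydrogenase, and Slc16a1, a lactate transporter, did not pass the F test over all times (limma adjusted p = 0.21 and 0.28).

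All 6 measured genes of 7 listed for the pentose phosphate pathway, which makes NADPH and ribose from glucose, were tested. At 3 h 0 of 6 were called higher, against 4.44% of all, and 2 lower, against 5.73%, with a median of -0.23. Pgls fell from 883 ± 58.5 to 719 ± 19.0 (-0.29, limma adjusted p = 0.0179) and Taldo1 from 351 ± 35.5 to 255 ± 12.1 (-0.46, limma adjusted p = 0.0209). At 6 h Pgls fell by 0.28 (limma adjusted p = 0.0244) and Rpia, the ribose phosphate isomerase, rose by 0.38 (limma adjusted p = 0.0244), which made 2 of 6 called, against 4.88% of all. Tkt, the transketolase, did not pass the F test over all times (limma adjusted p = 0.49). With arrays scaled to a common median these 4 calls were lost (limma adjusted p from 0.0518 to 0.219), at differences of -0.26 for Pgls and -0.43 for Taldo1 at 3 h and of -0.37 for Pgls and 0.29 for Rpia at 6 h. After quantile normalisation the 6 h call of Pgls was lost (-0.24, limma adjusted p = 0.0521). They were also lost without some single arrays. The 3 h call of Pgls was lost without replicate 1 of PBS (-0.26) and without replicate 1 (-0.29) or 2 (-0.28) of NmU at that time. That of Taldo1 was lost without replicate 1 of PBS (-0.41) and without replicate 1 (-0.42) or 3 (-0.46) of NmU. At 6 h that of Pgls was lost without replicate 1 (-0.26) or 2 (-0.27) of PBS or 3 (-0.24) of NmU. That of Rpia was lost without replicate 1 (0.39), 2 (0.35) or 4 (0.37) of PBS or 2 (0.33) or 3 (0.36) of NmU.

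**Figure D4:**
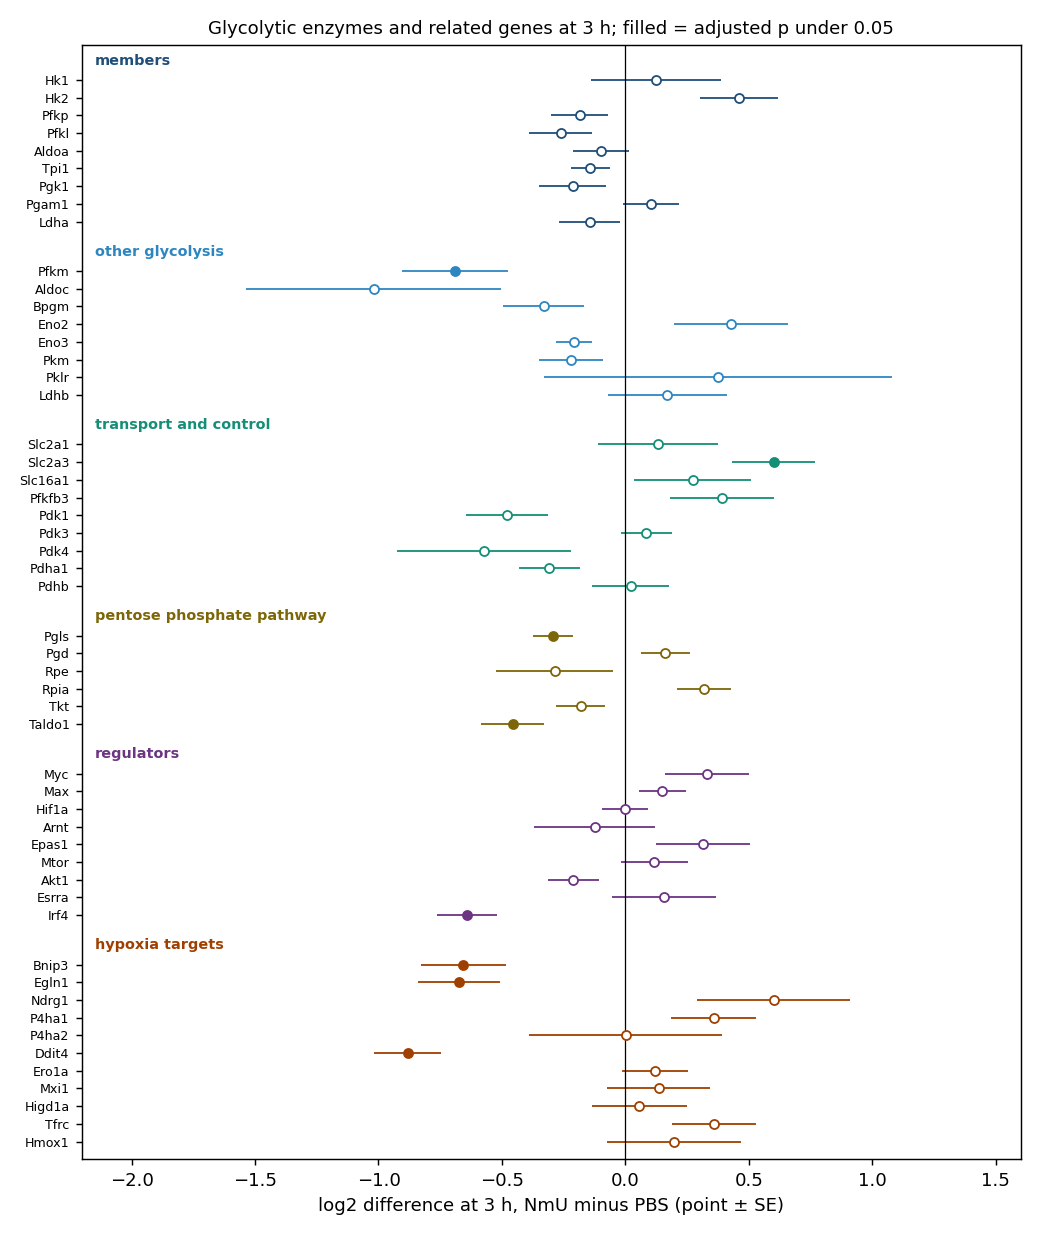
Difference between NmU and PBS at 3 h on the log2 scale (x axis), with the SE as whiskers, for the brightest probe set of each tested gene, grouped as glycolytic enzymes, other glycolysis, transport and control, pentose phosphate pathway, regulators and hypoxia targets. Filled points passed an adjusted p under 0.05 in limma: 0 among the enzymes, and among the other lists Slc2a3 above 0 and Pfkm, Pgls, Taldo1, Irf4, Bnip3, Egln1 and Ddit4 below it.

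Of 12 listed regulators 9 had a probe set and all 9 were tested. Myc, a transcription factor known to drive glycolytic genes, rose at 12 h from 227 ± 21.6 to 407 ± 30.7 (log2 difference 0.84, limma adjusted p = 0.0032), and at 0.8, 3 and 6 h its differences were 0.36, 0.33 and 0.53 without passing. The difference of Myc at 3 h passed without PBS 3 h replicate 4 (0.55, limma adjusted p = 0.00828), and that at 6 h, which lay near the threshold (limma adjusted p = 0.0524), passed without NmU 6 h replicate 2 (0.65, limma adjusted p = 0.0192), without some arrays of 3 h and with no floor (0.49, limma adjusted p = 0.0479). Irf4, a factor of activated T cells, fell at 3 h from 1221 ± 110 to 785 ± 95.7 (-0.64, limma adjusted p = 0.000691). These were the only calls in the list, 1 of 9 at 12 h, against 1.26% of all, and 1 of 9 lower at 3 h, against 5.73%. Epas1, a hypoxia-inducible factor, and Akt1, a kinase, did not pass the F test over all times (limma adjusted p = 0.0689 and 0.131). Hif1a, read by a probe set of the f type, gave differences between -0.15 and -0.0015.

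Of 17 hypoxia-inducible genes outside glycolysis 13 had a probe set and 11 were tested. At 3 h 0 of 11 were called higher, against 4.44% of all, and 3 lower, against 5.73%, with a median of 0.12. Bnip3, a mitochondrial mitophagy receptor, fell from 599 ± 191 to 368 ± 30.3 (-0.66, limma adjusted p = 0.0135), and Egln1, an oxygen-sensing prolyl hydroxylase, from 550 ± 179 to 332 ± 7.67 (-0.68, limma adjusted p = 0.0076). The call of Bnip3 was lost without replicate 2 of PBS (-0.46) or 3 of NmU (-0.60) at that time, each of which left 2 calls. In PBS at 0.8 h Bnip3 read 436 ± 57.3 and Egln1 366 ± 19.1. Ddit4, an inhibitor of mTOR signalling, fell by 0.67, 0.88 and 1.11 at 0.8, 3 and 6 h (limma adjusted p = 0.00273, 5.7e-05 and 2e-06). Its call at 0.8 h was lost with arrays scaled to a common median (-0.59, limma adjusted p = 0.0507). Ndrg1 and P4ha1 passed the F test over all times (limma adjusted p = 0.027 and 0.0271) with differences above 0 at 0.8, 3 and 6 h, of 0.93, 0.60 and 0.79 for Ndrg1 and of 0.45, 0.36 and 0.48 for P4ha1. The 3 h values moved with single PBS arrays of 3 h: that of Ndrg1 was 0.15 without replicate 4 and 0.99 (limma adjusted p = 0.0127) without replicate 2, and that of P4ha1 was 0.21 and 0.60 (limma adjusted p = 0.00178).

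Across these lists, with 8, 9, 6, 9 and 11 genes tested, 8 genes were called at 3 h, against 10.2% of all probe sets. With only the PBS and NmU arrays of 3 h in the fit all 8 calls were lost, with limma adjusted p from 0.0508 (Ddit4) to 0.249 (Pgls). The differences are the same in that setting, where 7 arrays rather than 31 estimate the spread, and the calls over all probe sets at 3 h went from 806 to 171. In the same setting at 6 h the calls of Eno3, Pgls, Rpia and Slc2a3 were lost and that of Ddit4 was kept, as were those of Ddit4 at 0.8 h and Myc at 12 h. Ndrg1 at 6 h passed there (0.79, limma adjusted p = 0.0155). The 5 lists were chosen with results of these data in view, so that their counts are a description.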

How the data were processed

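Total RNA of 31 samples was hybridised to 1 array each. The deposited table holds a linear 1-colour intensity per probe set, with 162 values of exactly 0 and none lower. How probes were summarised is not stated by the labels or file. By the values, the authors had scaled each deposited intensity column to a common mean (150.095 to 150.113 after 2% was trimmed from each end), so no normalisation was added, and a difference is relative to the other transcripts of an array. Groups and replicate numbers came from the titles. The 66 control probe sets were left out, leaving 12422, of which 10833 had 1 symbol in the platform annotation, 396 several and 1193 none.

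All arrays entered 1 fit of 8 group means in limma 3.58.1 (R 4.3.3), with 23 residual and 2.72 prior degrees of freedom and two-sided p-values adjusted by the Benjamini-Hochberg method. The fit was also run on simulated data with independent arrays, which cannot show how it behaves when replicates share a source of spread. Means and SDs are of deposited signals. The members and lists, and their tests, were chosen with earlier results of these data known. Named were all members, genes of the lists that were called in a comparison of NmU with PBS, the 4 of each list with the lowest p over all times, and the 5 genes most like the enzymes and most like Ldha. Pkm, Hif1a and Cd68 were added after their values were seen. Alternatives were another scaling, floor or filter, fewer groups in the fit, a block on the replicate number and each array left out. The labels do not say whether a replicate number pairs samples, and the values do not settle it. Of 15 same-numbered pairs 5 had deviations correlated above 0.1. Their median was 0.06, against -0.0129 for pairs with other numbers.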

Additional observations from a re-analysis of the deposited data

Results flagged for a closer look

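Of 77 groups of 4 arrays examined among the 11 enzyme probe sets, 1 held an array far from its group. Pfkp 97834_g_at read 592.9 in PBS at 0.8 h replicate 4, while the other 3 arrays lay between 710.9 and 730.7, so that the gap was 0.856 of the range. About 1 group in 20 passes this rule by chance. The second Pfkp probe set, 97833_at, read 702.0 on the same array, the highest of its 4. Without this array the difference of 97834_g_at at 0.8 h was -0.16 in place of -0.09.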

How the results depend on the processing

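The counts of member probe sets called at 0.8, 6 and 12 h, changed with time in PBS, and with an effect differing between times stayed at 0 of 11 under every alternative run. At 3 h the count was 1 in place of 0 with a common median (Hk2), 1 with the replicate block within times (Pfkp 97833_at, -0.31, limma adjusted p = 0.0423) and 0 to 1 with 1 array left out. Whether the numbers pair the samples is not settled, so that block stays an open alternative. The count over all times was 1 with a common median and 0 to 1 with 1 array left out. For time in NmU it was 2 with a common median and 0 to 3 with 1 array left out. For NmU at 6 h against 3 h it was 0 after quantile normalisation, 0 with only the groups compared, and 0 to 1 with 1 array left out (Hk2 from -0.44 to -0.72). Of 1684 alternative values of the 44 differences, 37 had the opposite sign, over 16 differences of at most 0.19. With the block the calls of Pfkm (limma adjusted p = 0.0575) and Pgls (0.0526) at 3 h and of Eno3 at 6 h (0.0781) were lost, and Rpia and Myc at 3 h, Myc at 6 h, and Ndrg1 at 0.8 and 6 h passed. With only the groups compared, 0 of the 3 hypoxia targets remained called at 3 h, at unchanged differences, while the calls over all probe sets went from 806 to 171. The call of Cd68 was lost at 6 h with both other scalings, at 6 and 12 h with no filter and with only the groups compared. Scaling moved the split of all calls at 3 h from 352 higher and 454 lower to 321 and 266 (common median) or 415 and 411 (quantile), and at 6 h from 226 and 161 to 115 and 178 (common median). The cause of these differences between settings was not tested. Signal limits what could be seen of the second Hk2 probe set, which lay near the floor, and groups of 3 or 4 arrays bound how precisely the rest were measured.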
